A study of Mus musculus with 3 samples.

Results

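A set of 10 genes that the transcription factor p53 is known to switch on were followed through irradiated mouse lung, cell class by cell class and gene by gene. They are 10 of the 22954 genes in the tables: Cdkn1a, Ccng1, Mdm2, Bax, Phlda3, Trp53inp1, Eda2r, Sesn2, Gdf15 and Zmat3. The set was taken from known p53 targets, with earlier results of these data already known. The question was which of the others go with Cdkn1a, the gene of the cell cycle inhibitor p21, and which do not. The study asked whether AsiDNA, a short double-stranded DNA decoy that the repair kinases take for a break, protects normal tissue from radiation through p53 and p21.

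Single-cell libraries were made from the lungs of 3 female wild-type C57BL/6J mice, 1 mouse for each condition, 5 months after 13 Gy to the whole thorax. They were young adults when irradiated, by the study's methods. The CONV mouse was irradiated at a conventional dose rate, the FLASH mouse at an ultra-high dose rate. The CONV AsiDNA mouse was irradiated at the conventional rate and was injected with AsiDNA at 100 mg/kg on the 2 preceding days and at 200 mg/kg on the day of irradiation. All 3 mice were irradiated, control libraries were not analysed here, and nothing below says what irradiation itself did. With 1 mouse per condition, differences between mice and differences between treatments cannot be told apart, and no test between conditions was made.

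The tables hold 6372 CONV, 6983 CONV AsiDNA and 6267 FLASH cells. Their values are natural logarithms of 1 plus a whole number, called an adjusted count here because cell totals lie in a narrow range, with medians of 3450, 3678 and 3621 and extremes of 1432 and 8462. Depth may thus have been evened out before deposit, which was not tested. For that reason a gene with a value of 0 is described as listed at 0 and not as absent. The libraries share few cell barcodes (16 between CONV and CONV AsiDNA, 9 between CONV and FLASH, 17 between CONV AsiDNA and FLASH). Gm42418, a transcript that overlaps ribosomal RNA, was listed at 0 in FLASH endothelial-like cells against 34702 CPM in CONV and 27703 in CONV AsiDNA, so FLASH stands apart in this transcript, and its part in the results was not tested.

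Cells were sorted into classes by marker genes, none of which is one of the 10 targets. A class was given to 18806 of the 19622 cells (95.8%), and 16 of 18 classes had at least 30 cells in every library. Classes are named after their markers as "-like" cells. A level is the sum of adjusted counts of a gene over the cells of a class, per 1000000 adjusted counts of that class and library (CPM). A share is the percentage of cells in which the gene is above 0, given with a 95% interval (exact, Clopper-Pearson) that covers the sampling of cells and not the spread between mice. Ratios of levels are given as log2 with 10 CPM added to both sides, and a gene was counted as past 2-fold beyond 1 or -1 on that scale. Values are given in the order CONV, CONV AsiDNA, FLASH unless named.

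In an unstressed cell p53 is kept low by Mdm2, a ubiquitin ligase that marks it for destruction. Kinases that sense DNA breaks interrupt this, and stabilised p53 binds paired decamers in the DNA of its targets, which arrest the cycle, start apoptosis, limit oxidative stress or, through Mdm2 itself, close the loop. In irradiated lung the pathway is best known for arrest and senescence of epithelial and endothelial cells.

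The p53 decamer is 3 purines, C, a pair of A or T bases, G and 3 pyrimidines, which reads the same on both strands, and a full site is a pair of decamers. Windows from 250 bases before to 50 bases after the start sites in RefSeq (GRCm38.p6) were found for 8 of the 10 genes, with 10 windows in all. Trp53inp1 and Zmat3 had no entry. A joined pair with at most 1 mismatch was found in 1 window of Cdkn1a and in that of Ccng1. Exact decamers numbered 2 in that Cdkn1a window and 1 in that of Ccng1. Cdkn1a had a further window at another start site (29093519 to 29093818), which held neither. The windows of Bax and Mdm2 held 1 exact decamer each and no pair. The windows of Phlda3, Sesn2, Gdf15 and Eda2r held neither. Among all 32851 such windows, 22 (0.067%) hold a joined pair and 2745 (8.36%) an exact decamer. The stretches below show the pairs of Cdkn1a and Ccng1 and the decamers of Mdm2 and Bax in capitals, because 4 of the 10 targets have a match near their start. A further exact decamer in the Cdkn1a stretch, ggactagctt, is left in lower case. A match is a description and not a measured binding site, and none says only that these letters are not in the window.
Cdkn1a, chr17:29090878-29090967, plus strand, pair at bases 51 to 32 before the start: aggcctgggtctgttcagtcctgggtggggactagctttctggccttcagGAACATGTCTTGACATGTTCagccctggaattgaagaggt
Ccng1, chr11:40755442-40755531, minus strand, pair at bases 195 to 176: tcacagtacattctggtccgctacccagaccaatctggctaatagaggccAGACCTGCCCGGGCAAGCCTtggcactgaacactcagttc
Mdm2, chr10:117710915-117710994, minus strand, decamer at bases 186 to 177: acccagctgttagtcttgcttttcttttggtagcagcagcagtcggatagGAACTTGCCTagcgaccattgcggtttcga
Bax, chr7:45467070-45467148, minus strand, decamer at bases 201 to 192: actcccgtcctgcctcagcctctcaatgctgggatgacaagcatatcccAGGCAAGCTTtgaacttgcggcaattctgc

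Cdkn1a (chromosome 17, 29090976 to 29100727, plus strand, GRCm38) was read in a minority of all cells (32.4%, 27.4% and 25.6%), at levels of 346, 331 and 356 CPM. The level over all captured cells thus hardly differed between the 3 libraries, while the share of cells and the distribution over cell classes did. That level also depends on cell make-up, with 364, 446 and 482 endothelial-like cells, and does not measure the whole lung. Endothelial-like cells led in every library. Their levels were 1793, 1919 and 2439 CPM and their shares 90.1% (86.6 to 93.0), 86.8% (83.3 to 89.8) and 95.2% (92.9 to 97.0). Interstitial macrophage-like cells came next in level in every library, with 712, 603 and 567 CPM and shares of 72.5%, 59.4% and 58.8%. In CONV the shares of interstitial macrophage-like (72.5%), ciliated-like (68.8%) and AT2-like cells (67.7%) have intervals that overlap, so their order is not resolved even by the sampling of cells.

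Cdkn1a was listed at 0 in nearly all lymphocytes. B cell-like cells were above 0 in 0%, 0% and 0.0871% of 1320, 1600 and 1148 cells, and T cell-like cells in 2.00%, 0% and 0%. NK cell-like cells gave 0%, 0.357% and 0%. Median cell totals of B cell-like cells (2825, 2964 and 3041) were lower than those of endothelial-like cells (3842, 3948 and 3895), so the classes also differ in the counts behind a share. How much of a share in any other class is stray RNA was not measured, and the sources read here do not state if background was removed before deposit.

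**Figure D1:**
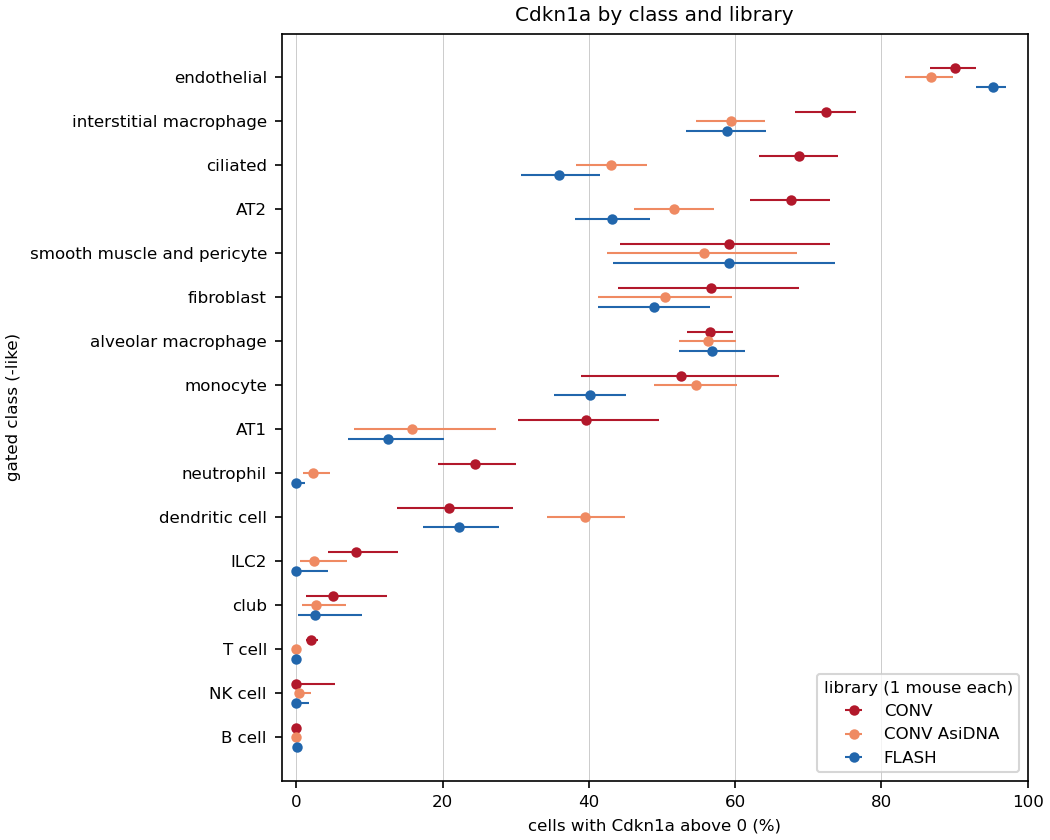
Share of cells with Cdkn1a above 0 (x axis, %) in each gated class (y axis), 1 point per library with its exact 95% interval for the sampling of cells. Endothelial-like cells lie at 86.8% or more in all 3 libraries, lymphocyte classes near 0, and the CONV interval lies above both others in interstitial macrophage-like, ciliated-like, AT2-like, AT1-like, neutrophil-like and T cell-like cells, though in AT2-like cells the shares came close after thinning (29.3%, 29.4% and 26.3%).

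There were 5 classes with Cdkn1a past 2-fold higher in CONV than in both other libraries, and none with it lower. In neutrophil-like, T cell-like and ILC2-like cells Cdkn1a met the minimum sum mainly through CONV, so nothing is read from the direction in those classes. Dendritic cell-like cells had CONV lowest instead, at 149, 308 and 201 CPM. Their log2 ratio of CONV to CONV AsiDNA was -0.99, just short of 2-fold, with share intervals apart, and that to FLASH was -0.40. Ciliated-like cells, which carry the motile cilia of the airway, gave 393 CPM in CONV against 190 and 170, with shares of 68.8% (63.2 to 74.0), 43.1% (38.3 to 48.0) and 35.9% (30.7 to 41.5). The CONV interval stands above the other two. The log2 ratios were 1.01 and 1.17, of which the first lies at the threshold and passed it in 6 of 10 other ways of processing. With each cell thinned to 1000 adjusted counts CONV stayed highest at 28.9%, while CONV AsiDNA (14.5%) and FLASH (14.7%) were alike. AT1-like cells, the flat cells of gas exchange, gave 527, 188 and 142 CPM and shares of 39.6%, 15.9% and 12.6%, from 106, 63 and 111 cells. There CONV was again the high library. With each cell given the same weight, the AT1-like log2 ratio to CONV AsiDNA fell from 1.44 to 0.91.

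Among these 5 classes, neutrophil-like cells had the largest ratio of Cdkn1a levels, though not the widest gap in share. Cdkn1a was above 0 in 65 of 266 CONV cells (24.4%, 19.4 to 30.1), in 7 of 312 CONV AsiDNA cells (2.24%, 0.907 to 4.57) and listed at 0 in all 296 FLASH cells. The levels were 308 and 18.9 CPM in the first pair, a log2 ratio of 3.46. T cell-like cells were above 0 in CONV only, at 15.3 CPM, so that their ratio of 1.34 is set by the 10 CPM added, and it was -0.03 against CONV AsiDNA when T cells were taken from clusters instead of the gate. ILC2-like cells gave 84.4 and 26.1 CPM with FLASH listed at 0, and their ratio to CONV AsiDNA fell from 1.38 to 0.82 with 50 CPM added. Mast and basophil-like cells fell short of 30 cells in FLASH and were not compared, but their shares ran the same way, at 70.2% of 104, 33.8% of 68 and 4.17% of 24 cells.

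AT2-like cells, the surfactant-producing cells of the alveolus, gave shares and levels in different orders. The shares were 67.7% (62.0 to 73.0), 51.7% (46.1 to 57.1) and 43.2% (38.1 to 48.3), whereas the levels were 491, 572 and 459 CPM. After thinning, the shares were 29.3%, 29.4% and 26.3%. The thinned shares were close, and no order of the libraries is read from the share. Alveolar macrophage-like cells had close shares of 56.6%, 56.2% and 56.9% at 305, 376 and 370 CPM. After thinning, these alveolar macrophage-like shares were 20.9%, 26.5% and 25.0%. Without a mostly CONV cluster, chosen after seeing the data, they were 75.4%, 56.1% and 57.1%, so no order is read from them. In fibroblast-like cells the shares were 56.7%, 50.4% and 48.9% at 651, 554 and 400 CPM, and the intervals overlapped. Without the cells of highest doublet score they were 43.9%, 47.4% and 45.6%, so CONV went from highest to lowest and no order is read from them.

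**Figure D2:**
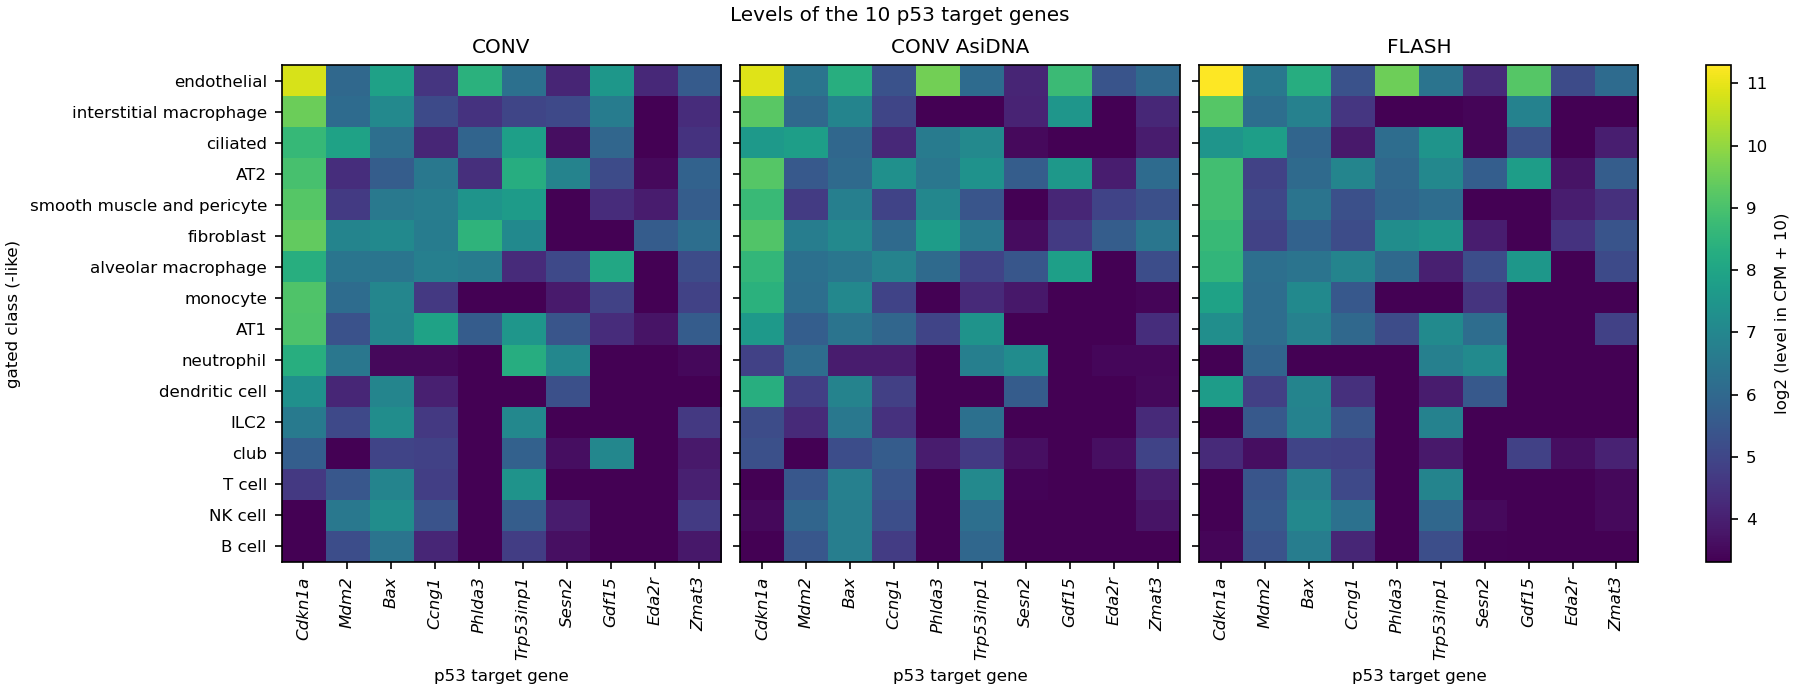
Levels of the 10 p53 target genes (columns) in the 16 compared classes (rows), 1 panel per library, coloured by log2 of the level in CPM plus 10. Endothelial-like cells have the highest Cdkn1a in every panel, Mdm2 peaks in ciliated-like cells and Sesn2 in neutrophil-like cells, and the Phlda3 column is at 0 in most immune classes.

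The other arrest gene, Ccng1 (chromosome 11, 40748552 to 40755311, minus strand), encodes cyclin G1, which acts with a phosphatase on Mdm2. It was not highest where Cdkn1a was. Endothelial-like cells gave 13.5, 30.1 and 30.6 CPM, against 81.3, 150 and 113 in AT2-like and 98.8, 108 and 110 in alveolar macrophage-like cells. In AT1-like cells Ccng1 went with Cdkn1a, at 232, 52.2 and 54.9 CPM (log2 ratios 1.96 and 1.90). Smooth muscle and pericyte-like cells showed the same order for Ccng1, at 93.1, 20.4 and 28.4, and Cdkn1a ran in the same order with smaller gaps, at 574, 413 and 459 CPM. These rest on few cells, 49, 61 and 44 for the second class.

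Mdm2 (chromosome 10, 117688875 to 117710758, minus strand), the negative regulator of p53, was led by ciliated-like cells in every library. They gave 230, 211 and 212 CPM with shares of 67.4%, 63.8% and 58.4%. Cdkn1a more than halved from CONV to FLASH in the same cells, while the Mdm2 log2 ratios were 0.12 and 0.11. Endothelial-like cells gave 54.9, 74.4 and 81.1 CPM. B and T cell-like cells, nearly all listed at 0 for Cdkn1a, had Mdm2 at 26.8, 34.5 and 30.9 and at 34.3, 34.9 and 32.9. No class had Mdm2 past 2-fold from both other libraries in CONV, among 14 tested.

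Among the genes of apoptosis and survival, Bax (chromosome 7, 45461697 to 45466898, minus strand) encodes a protein that opens the outer mitochondrial membrane. Endothelial-like cells gave 225, 305 and 303 CPM and led in every library, with shares of 47.3%, 61.0% and 61.6%. Bax was also read widely in lymphocytes, at 74.2, 95.8 and 93.6 in B cell-like and 111, 101 and 104 in T cell-like cells. Neutrophil-like cells had it at 1.33 and 5.24 CPM and listed at 0 in FLASH, in the class with the largest ratios of Cdkn1a levels.

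Phlda3 (chromosome 1, 135766119 to 135769136, plus strand) encodes a small protein that competes with Akt for the membrane. It was read in few classes, and monocyte-like, dendritic cell-like, neutrophil-like, B, T, NK and ILC2-like cells were listed at 0 in all 3 libraries. Endothelial-like cells gave 331, 760 and 735 CPM with shares of 46.7%, 73.8% and 77.2% (24.5%, 39.0% and 45.4% after thinning to 1000), so that CONV was the low library. In fibroblast-like cells CONV was instead the high one, at 356, 201 and 139. AT2-like cells gave 11.1, 79.8 and 54.8 CPM, with 3.03%, 22.5% and 14.2% of cells above 0.

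Trp53inp1 (chromosome 4, 11156431 to 11174379, plus strand), whose product binds p53 kinases and also serves autophagy, was not led by the class that led in Cdkn1a. Neutrophil-like cells gave 303, 99.5 and 102 CPM and AT2-like cells 303, 157 and 123, with CONV high in both. Ciliated-like cells gave 214, 126 and 164, and T cell-like cells, nearly all listed at 0 for Cdkn1a, 162, 124 and 110. B cell-like cells ran the other way, with the lowest value in CONV, at 17.4, 53.9 and 27.8. Endothelial-like cells gave 66.2, 58.5 and 74.5.

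Eda2r (chromosome X, 97333840 to 97377216, minus strand), a receptor of the tumour necrosis factor family, was the sparsest of the 10. Endothelial-like cells gave 9.03, 31.9 and 25.6 CPM and fibroblast-like cells 40.3, 40.5 and 12.5. It was above 0 in no more than 0.502%, 1.36% and 1.05% of all cells, and only these 2 of the compared classes had enough of it. Mesothelial-like cells, left out for their number (16, 42 and 37), had it in 18.8%, 23.8% and 21.6%.

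Sesn2 (chromosome 4, 132492032 to 132510501, minus strand), a stress-induced brake on mTORC1 that is also a target of Atf4, was led by neutrophil-like cells at 118, 136 and 132 CPM. AT2-like cells gave 108, 40.5 and 41.6, with shares of 42.4%, 18.3% and 18.2%. Endothelial-like cells, first in Cdkn1a, had 7.52, 7.68 and 9.45 CPM. Sesn2 thus did not follow Cdkn1a in place.

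Gdf15 (chromosome 8, 70629393 to 70632456, minus strand), a secreted stress cytokine, was read in endothelial-like cells at 175, 422 and 569 CPM with shares of 15.4%, 38.6% and 42.7%. AT2-like cells gave 25.0, 181 and 207 and shares of 4.04%, 19.5% and 17.9%. CONV was the low library in both. Alveolar macrophage-like cells gave 266, 215 and 176. Lymphoid, dendritic cell-like and neutrophil-like cells were listed at 0 in all libraries.

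Zmat3 (chromosome 3, 32334792 to 32366014, minus strand), an RNA-binding regulator of splicing, was spread over structural cells. Fibroblast-like cells gave 63.8, 77.2 and 31.9 CPM, AT2-like cells 46.5, 59.2 and 40.5, and endothelial-like cells 39.1, 56.1 and 58.4. It was low in neutrophil-like cells, at 1.33, 1.05 and 0. No class had it past 2-fold from both other libraries in CONV.

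Across the 48 points of class and library, Phlda3 (Pearson r 0.69), Zmat3 (0.63), Gdf15 (0.59) and Eda2r (0.49) followed the log2 level of Cdkn1a most closely. Ccng1 (0.30), Bax (0.30), Mdm2 (0.26) and Sesn2 (0.20) had lower values, and Trp53inp1 the lowest (-0.04). The points share 3 libraries and 16 classes and are not independent. Without endothelial-like cells, a choice made after seeing the data, the values for Phlda3, Zmat3, Gdf15 and Eda2r were 0.60, 0.55, 0.48 and 0.36, and Ccng1 stood level with the last at 0.35. For scale, 1.15% of the 17464 genes with enough counts had a higher r than Phlda3 and 73.3% a higher r than Trp53inp1.

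With the mean of each class taken off, what remains is how the libraries differ within a class, and the order changed. Zmat3 (0.44) and Trp53inp1 (0.43) then led, Bax (0.22) and Gdf15 (0.20) followed, and Phlda3 stood at 0.11. The r of Phlda3 was thus higher over classes than within them, and that of Trp53inp1 was higher within classes. The percentage of all genes with a higher r within classes is not given, so these within-class values are a description only. Of all genes, the most alike in level over the 48 points were Stx12 (0.87), Tmem109 (0.86), Lrrc58 (0.85), Bmpr2 (0.84) and Stk3 (0.83), and within classes Cnbp (0.75), Gm44759 (0.73), E230014E18Rik (0.72), Csnk1a1 (0.72) and Hba-a2 (0.71). E230014E18Rik and Hba-a2 were listed at 0 in endothelial-like cells of every library, so a high r within classes can arise in sparse genes.

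Where Cdkn1a was past 2-fold between CONV and CONV AsiDNA, in 5 classes, CONV was the higher in each, and Trp53inp1 was also higher in CONV in 5 of 5, past 2-fold in 1. Against FLASH there were 7 such classes, and Trp53inp1 lay on the same side in 6 of the 6 where it could be compared, past 2-fold in 2. Neutrophil-like and ILC2-like cells are in both counts and met the minimum sum for Cdkn1a mainly through CONV, so the direction of Cdkn1a there is not read. T cell-like cells are in both counts too, although Cdkn1a was above 0 there in CONV only and the minimum sum thus fixed the direction. With cells taken from clusters their Cdkn1a ratio to CONV AsiDNA was -0.03. Over all genes and these classes 47.9% of ratios to CONV AsiDNA and 53.6% of those to FLASH were on the CONV side. Bax lay on the same side in 4 of 4 and 5 of 6, with no ratio past 2-fold. Mdm2 was divided, at 3 of 5 and 3 of 6, and so was Ccng1, at 2 of 4 and 3 of 6. Zmat3 lay on the same side in 3 of 3 and 3 of 4, Gdf15 in 1 of 1 and 2 of 2 and Phlda3 in 1 of 2 and 1 of 2. Sesn2 did so in 1 of 2 and 0 of 3, and Eda2r could be compared in none. These classes differ in how many of all genes were past 2-fold between CONV and CONV AsiDNA: 14% in neutrophil-like, 1.96% in T cell-like, 13.5% in ILC2-like, 20.7% in AT1-like and 2.23% in ciliated-like cells. Against FLASH the percentages were 15.5, 2.15, 13.4, 18.2 and 3.07 in the same order, with 15.7 in monocyte-like and 20.1 in club-like cells. A 2-fold difference was thus rare among genes in ciliated-like cells and common in AT1-like cells.

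**Figure D3:**
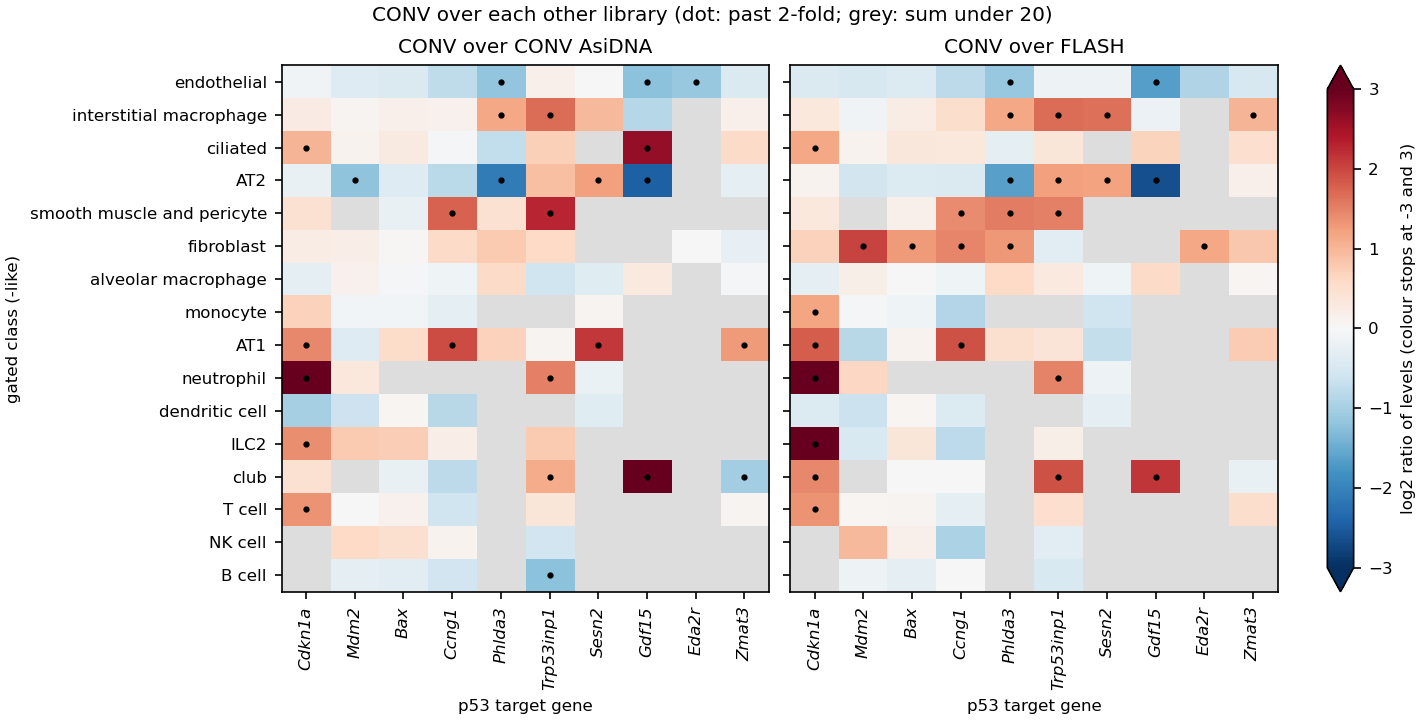
Log2 ratio of levels, CONV over CONV AsiDNA (left) and over FLASH (right), for each p53 target (columns) and class (rows), with dots past 2-fold and grey where the summed count was under 20. The Cdkn1a column is positive in ciliated-like, AT1-like and neutrophil-like cells, while Phlda3 and Gdf15 are negative in endothelial-like and AT2-like cells.

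In endothelial-like cells (364, 446 and 482), first in Cdkn1a, the targets past 2-fold were all lower in CONV. All 10 could be compared. Against CONV AsiDNA none was past 2-fold higher in CONV and 3 were lower (Phlda3 -1.17, Gdf15 -1.23 and Eda2r -1.14), beside 7.28% of all genes past 2-fold in either direction. Against FLASH, 2 were lower (Phlda3 -1.13, Gdf15 -1.65), beside 7.91% of genes. Between CONV AsiDNA and FLASH none was, beside 1.25% of genes. Cdkn1a itself had ratios of -0.10 and -0.44, and the median of the 10 was -0.43 and -0.48 against -0.04 and -0.03 over all genes.

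Part of this lay in 1 cluster of cells. An unsupervised Leiden cluster of 156 endothelial-like cells came to 84.6% from CONV (132, 23 and 1 cells). It was singled out after its values were seen. It had Rgcc, Rsad2, Fam167b, Il6 and Fabp4 high and Car4, Tmem100, Ccl21a, Lyve1 and Hpgd low. Endothelial identity genes were also lower inside it than outside, Cldn5 at 149 against 5750, Foxf1 at 19.6 against 881 and Cdh5 at 1108 against 2714 CPM. Fos, an immediate early gene that tissue digestion also raises, stood at 4093 CPM inside it and 1087 outside. Its CONV cells had Cdkn1a at 1063, Phlda3 at 56.6 and Bax at 143 CPM, and Gdf15 was listed at 0.

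Without that cluster, 232, 423 and 481 endothelial-like cells remained. Phlda3 was then 484, 793 and 736 CPM, with ratios of -0.70 and -0.59, and Gdf15 272, 443 and 570, with ratios of -0.68 and -1.04. Cdkn1a was 2201, 2006 and 2441. Only 1 target was past 2-fold in each comparison, Eda2r at -1.15 against CONV AsiDNA, beside 5.92% of genes in these cells, and Gdf15 against FLASH, beside 6.03%, so the counts of 3 and 2 rest partly on these CONV cells.

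The subsets outside the cluster carried the targets unequally and made up different parts of each library. They held 66, 165 and 181 cells (Car4 Ednrb), 98, 167 and 199 (Gpihbp1) and 53, 60 and 67 (Vwf). In Car4 Ednrb endothelial-like cells, the broad capillary cells of gas exchange, Phlda3 was 636, 1072 and 1080 CPM and Gdf15 665, 538 and 898. Gpihbp1 endothelial-like cells, the general capillary cells, gave Phlda3 at 420, 638 and 553 and Gdf15 at 111, 357 and 410. Vwf endothelial-like cells, of larger vessels, gave 409, 586 and 513 and 124, 408 and 325. Phlda3 was lowest in CONV in all 3 subsets, whereas Gdf15 was lowest there in the Gpihbp1 and Vwf subsets only. Cdkn1a had no such order, at 1794, 2302 and 2856, then 2403, 1793 and 2405, then 2181, 1935 and 1683.

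**Figure D4:**
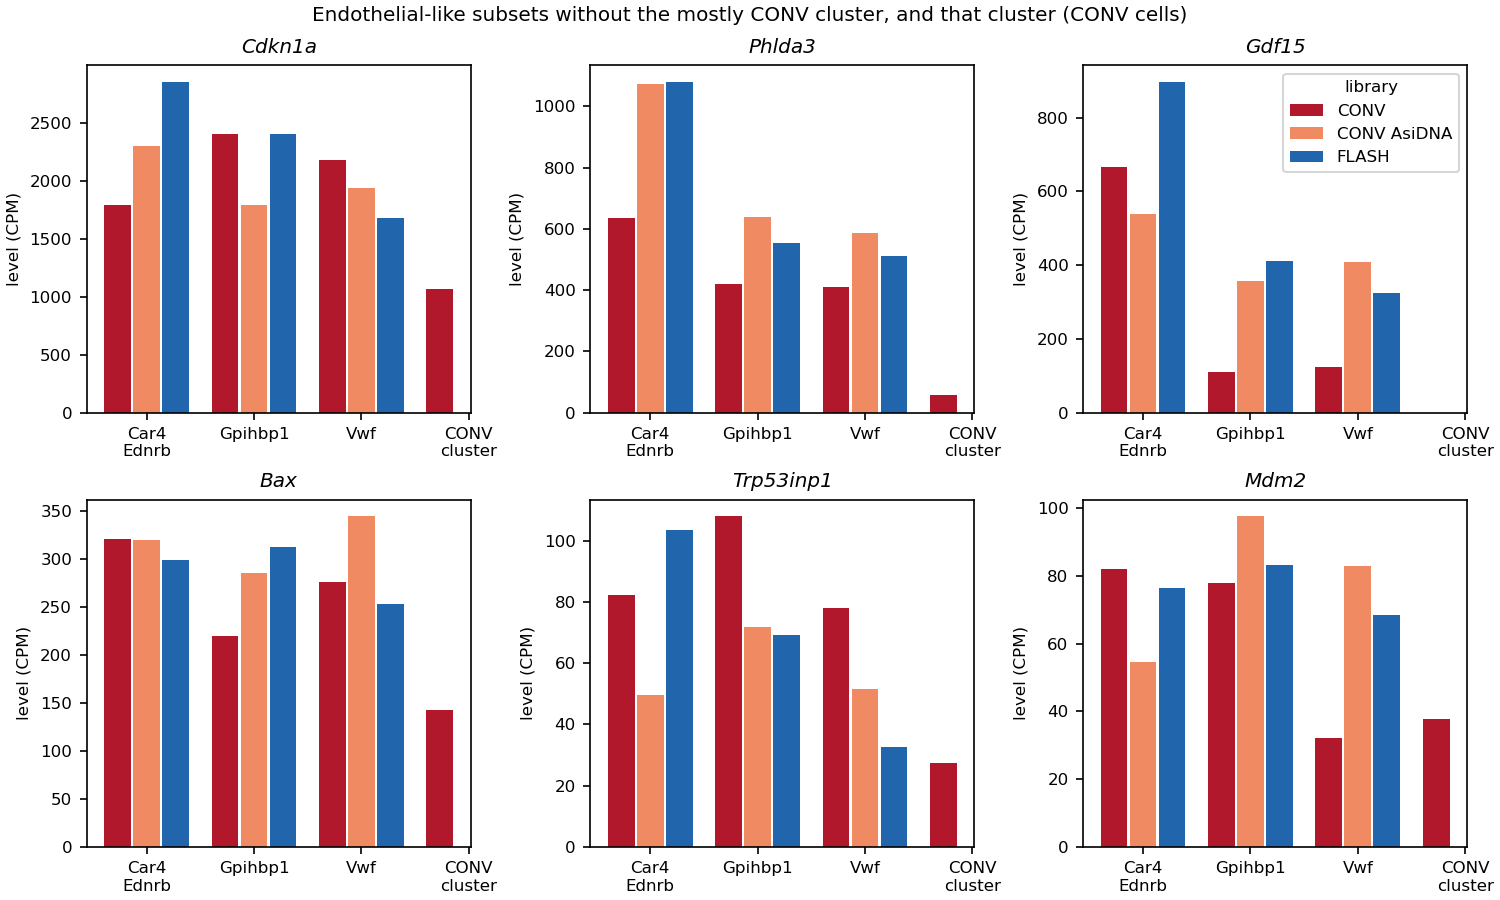
Levels in CPM (bars from 0) of 6 p53 targets in 3 endothelial-like subsets without the mostly CONV cluster, and in the CONV cells of that cluster (right), coloured by library. Phlda3 is lowest in CONV in each subset, Gdf15 is at 0 in the CONV cluster, and the Cdkn1a bars do not keep 1 order of the libraries.

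Other genes of the pathway were counted in endothelial-like cells. Of p53 and 7 regulators, 7 could be compared and none was past 2-fold; Trp53 itself stood at 79.0, 54.9 and 57.2 CPM, Usp7, which stabilises p53 and Mdm2, at 101, 74.4 and 71.7, and Mdm4 at 71.5, 61.4 and 53.9. Of 22 further p53 targets, 3 were past 2-fold higher in CONV than in CONV AsiDNA and 2 higher than in FLASH, and none lower, beside 7.28% and 7.91% of all genes in either direction. Btg2, an antiproliferative gene that is also an early response gene, gave 599, 233 and 257, and Pmaip1, which encodes the death protein Noxa, 21.1, 1.18 and 4.45. Without CONV, Pmaip1 would not have met the minimum sum, so nothing is read from its direction. Of 6 other Cdk inhibitors, 2 were past 2-fold higher in CONV and 1 lower in each comparison, beside the same percentages of genes. Cdkn2c was higher in both (40.6, 9.45 and 12.8), Cdkn2d against CONV AsiDNA and Cdkn2a against FLASH. Cdkn2b was lower in both (17.3, 51.4 and 53.4).

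Genes raised by tissue digestion moved with these cells. Of 15 such genes, 11 were past 2-fold higher in CONV than in CONV AsiDNA and 8 higher than in FLASH, beside 7.28% and 7.91% of all genes in either direction, with summed levels of 14976, 5894 and 7845 CPM. The 9 endothelial markers summed to 17193, 23845 and 24580. Summed mitochondrial transcripts were 3720, 10426 and 14117. Neutrophil markers summed to 1.50, 1980 and 0 CPM, with 6, 4 and 8 of the 8 genes at 0, and the 8 B cell markers to 333, 58.5 and 52.2. Their part in the endothelial results was not tested.

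AT2-like cells (297, 333 and 380) had 9 of the 10 targets in sufficient amount, and the targets went both ways. Against CONV AsiDNA, Sesn2 was past 2-fold higher in CONV (1.23), and Mdm2 (-1.20), Phlda3 (-2.09) and Gdf15 (-2.45) were lower, beside 4.65% of all genes. Against FLASH, Sesn2 (1.20) and Trp53inp1 (1.24) were higher and Phlda3 (-1.62) and Gdf15 (-2.63) lower, beside 5.49% of genes. None was past 2-fold between CONV AsiDNA and FLASH, beside 1.05%. Cdkn1a had ratios of -0.22 and 0.10, and the median of the 9 was -0.39 and -0.41 against 0.02 and 0.12 over all genes. The Gdf15 ratios passed 2-fold under all 10 other ways of processing. Sesn2 and Gdf15 are both targets of Atf4 as well as of p53, and they went in opposite directions.

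The lists around the targets are given for AT2-like cells beside the same 4.65% and 5.49% of all genes, and differences between lists were not tested. None of 7 genes of p53 and its regulators was past 2-fold in CONV against either library, with Trp53 at 6.94, 4.99 and 3.29 CPM. Of 19 further p53 targets, 2 were lower in CONV than in CONV AsiDNA and none differed from FLASH; Plk2, a stress-induced kinase, gave 12.5, 64.9 and 26.8. Of 4 other Cdk inhibitors, Cdkn1c and Cdkn2c were past 2-fold higher in CONV than in both libraries, at 24.3, 4.37 and 0 and at 22.2, 1.87 and 1.10. Of 4 cell cycle genes that p53 is known to hold down, 3 (Mki67, Top2a and Cdk1) were past 2-fold higher in CONV than in CONV AsiDNA and none against FLASH. They are low, with Top2a at 20.8, 1.25 and 5.48 CPM, and the 13 genes of that list summed to 93.8, 11.8 and 40.5. Without CONV, neither these 3 nor Cdkn1c and Cdkn2c would have met the minimum sum, so nothing is read from their direction. Digestion genes summed to 14599, 11310 and 10799 CPM, and mitochondrial transcripts to 14911, 30410 and 51691; their part was not tested.

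Ciliated-like cells (298, 420 and 320) had 8 targets in sufficient amount. Cdkn1a and Gdf15 were past 2-fold higher in CONV than in CONV AsiDNA, beside 2.23% of all genes, and Cdkn1a alone against FLASH, beside 3.07%. Gdf15 was 52.5 and 29.2 CPM in CONV and FLASH, from 14 of 298 and 5 of 320 cells, 1 of which held 20 of the 39 FLASH counts. It was listed at 0 in CONV AsiDNA, which was the single difference between that library and FLASH, beside 1.11% of genes. Mdm2, Bax and Trp53inp1 stayed within 2-fold, and Phlda3 was lowest in CONV, at 49.5, 89.7 and 62.1. The median of the 8 was 0.42 and 0.35 against 0.05 and 0.11 over all genes. Club cell markers summed to 8967, 47231 and 70319 CPM in these cells, opposite in order to Cdkn1a. Gm42418 ran in the same order as Cdkn1a, at 25225.2, 15092.5 and 9255.05 CPM, and digestion genes summed to 6567, 4082 and 6633. A smaller ciliated-like cluster held 13, 28 and 102 cells, 71.3% of them from FLASH. The part of these in the ciliated results was not tested.

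Fibroblast-like cells (67, 123 and 176) set FLASH apart. No target of 8 was past 2-fold between CONV and CONV AsiDNA, beside 10.5% of all genes. Against FLASH 5 were higher in CONV, beside 11.8% of genes: Mdm2 (2.04), Bax (1.27), Ccng1 (1.47), Phlda3 (1.30) and Eda2r (1.16). Mdm2 (1.83), Bax (1.22), Eda2r (1.17) and Zmat3 (1.06) were also higher in CONV AsiDNA than in FLASH, beside 4.99%. Cdkn1a ran in the same order, at 651, 554 and 400 CPM, without passing 2-fold (0.69 against FLASH). Mdm2 was 111, 94.5 and 19.4 CPM and Bax 128, 123 and 47.2. Trp53inp1 was highest in FLASH instead, at 128, 81.0 and 164. The median of the 8 was 0.22 against CONV AsiDNA and 1.21 against FLASH, with -0.01 and -0.03 over all genes. Mdm2 and Phlda3 against FLASH passed 2-fold under all 10 other ways of processing, and Zmat3 between CONV AsiDNA and FLASH in 6 of them. The Mdm2 level of CONV AsiDNA came from 15 of 123 cells, and its ratio to FLASH was 0.74 without the cells of highest doublet score.

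Around them in fibroblast-like cells, 4 of 14 further p53 targets were past 2-fold higher in CONV than in FLASH (Aen, Polk, Ak1 and Ephx1) and none lower, beside 11.8% of all genes in either direction, which is also the share for the lists that follow. Atm, the kinase that signals DNA breaks, was the one regulator of 6 past 2-fold. Without CONV, Polk and Atm would not have met the minimum sum, so nothing is read from their direction. Digestion genes ran against CONV here, with 1 of 15 higher and 3 lower than in FLASH, and Nr4a1 at 101, 345 and 297 CPM. Smooth muscle and pericyte markers summed to 507, 882 and 1516 CPM, with 4, 4 and 3 of the 10 at 0, and mitochondrial transcripts to 3257, 7333 and 10661. Gm42418 was at 10641 and 15837 CPM and listed at 0 in FLASH. The 10 fibroblast markers were near equal, at 22933, 23340 and 23591. The part of these in the fibroblast results was not tested.

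Alveolar macrophage-like cells (996, 665 and 480) had 9 targets in sufficient amount and none past 2-fold in any comparison, beside 4.9% of all genes against CONV AsiDNA, 5.84% against FLASH and 0.908% between those libraries. Here too 1 cluster was mostly CONV, holding 858, 109 and 58 of the gated cells, and with Mfge8, Apoe and Mmp12 high. Inside it Cdkn1a was 269, 380 and 424 CPM, and outside it 533, 375 and 362. CONV was thus lowest in 1 part and highest in the other. Phlda3 was higher inside than outside, at 96.1, 125 and 114 against 53.5, 43.1 and 47.4. Outside it no target was past 2-fold against CONV AsiDNA, beside 4.38% of genes, and 1 was against FLASH, Trp53inp1 (1.21), beside 4.46%.

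Neutrophil-like cells (266, 312 and 296) had 4 targets in sufficient amount. Cdkn1a and Trp53inp1 were past 2-fold higher in CONV than in CONV AsiDNA, beside 14% of all genes, and than in FLASH, beside 15.5%. Only Cdkn1a was past 2-fold between CONV AsiDNA and FLASH (18.9 CPM against 0), beside 11.4% of genes. Its share intervals overlapped there, and the ratio fell from 1.53 to 0.46 with 50 CPM added. Cdkn1a met the minimum sum mainly through CONV, at 308 CPM, so nothing is read from that difference or from the direction of its CONV ratios. Sesn2 (118, 136 and 132) and Mdm2 (79.7, 61.8 and 48.7) stayed within 2-fold. Atf3 (363, 122 and 129) and Nr4a1 (3062, 1395 and 977), genes that digestion also raises, were higher in CONV too, and the 15 digestion genes summed to 25798, 18083 and 19682 CPM. Gm42418 was at 28685 and 29316 CPM and listed at 0 in FLASH. The 13 mitochondrial transcripts summed to 17.3, 18.9 and 0, with 4, 6 and 13 of them at 0. Neutrophil-like cells of all 3 libraries, FLASH most, thus list genes at 0 that every cell uses. The part of these in the Cdkn1a difference was not tested.

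Some other classes had targets past 2-fold between CONV and 1 or both of the other libraries. In B cell-like cells Trp53inp1 alone was, lower in CONV than in CONV AsiDNA (-1.22), beside 3.1% of genes, and no target was against FLASH, beside 3.41%. With 2 markers in the gate that ratio was -0.84. B cell-like clusters differed in make-up, 1 with 399, 1144 and 845 cells and 1 with 946, 459 and 309, and the part of this was not tested. In AT1-like cells, 4 of 8 targets were past 2-fold higher in CONV than in CONV AsiDNA, beside 20.7% of genes, and 2 of 8 higher than in FLASH, beside 18.2%, the latter being Cdkn1a and Ccng1. In smooth muscle and pericyte-like cells 2 of 5 (Ccng1 and Trp53inp1) were higher than in CONV AsiDNA, beside 13.1% of genes, and 3 of 5 than in FLASH, beside 17%. Trp53inp1 there was 197, 32.7 and 62.4 CPM. In interstitial macrophage-like cells 2 of 9 targets were past 2-fold higher in CONV than in CONV AsiDNA, beside 3.05% of genes, and 4 of 9 than in FLASH, beside 4.81%. Trp53inp1 (21.8 CPM) and Phlda3 (12.4 CPM) were there read in CONV and listed at 0 in both others. They met the minimum sum through CONV alone, so their direction was fixed and nothing is read from it. Sesn2 gave 23.8, 7.32 and 0.763 CPM. Without CONV, Sesn2 and Zmat3 would not have met the minimum sum either. When these cells were taken from clusters, Phlda3 was listed at 0 in CONV as well, and the Zmat3 ratio to FLASH fell from 1.03 to 0.87. With 50 CPM added, Phlda3, Trp53inp1, Sesn2 and Zmat3 were all within 2-fold of FLASH. Monocyte-like cells gave Cdkn1a at 540, 333 and 231 CPM from 57, 313 and 399 cells, beside 15.6% of genes past 2-fold between CONV and CONV AsiDNA, none of them a target. Against FLASH its ratio was 1.19, the single target past 2-fold, beside 15.7% of genes. In club-like cells, beside 9% of genes past 2-fold against CONV AsiDNA and 20.1% against FLASH, Trp53inp1 was 45.0, 15.3 and 4.71 and Gdf15 118, 0 and 18.8 CPM. Zmat3 ran the other way, at 4.74, 20.4 and 7.07 CPM, past 2-fold lower in CONV than in CONV AsiDNA (-1.05). Cdkn1a was past 2-fold higher in CONV than in FLASH (1.44). Gdf15 met the minimum sum in club-like cells through CONV, with sums of 50, 0 and 8, so nothing is read from its direction.

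Within a class and library, cells with Cdkn1a above 0 were set against those with Cdkn1a at 0, wherever both had enough cells (14 sets of class and library). The share with Bax above 0 was higher in the Cdkn1a cells, with intervals apart, in 7 of 14 sets, Ccng1 and Phlda3 in 5 each, Gdf15 in 4, Mdm2, Trp53inp1 and Zmat3 in 3 each, Eda2r in 2 and Sesn2 in 1. In no set was a target lower with intervals apart. Counted with the same minimum sum as before, targets were higher in 32 of 104 pairs of target and set, and 31 of these kept the direction after thinning. Over all genes 2.13% of pairs were higher and 0.448% lower. Cells of 1 mouse are not replicates, so these counts describe the libraries.

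In AT2-like cells 18 of 24 pairs were higher with intervals apart, beside 2.03% over all genes. Ccng1 was above 0 in 28.9% of CONV cells with Cdkn1a against 6.25% without, in 68.6% against 13.7% in CONV AsiDNA and in 61.0% against 8.80% in FLASH. Phlda3 gave 4.48% against 0%, 40.7% against 3.11% and 32.3% against 0.463%. So in CONV even the cells with Cdkn1a seldom had Phlda3. Gdf15 was alike, at 5.47% against 1.04%, 32.6% against 5.59% and 36.6% against 3.70%. Bax ran at 19.4% against 6.25%, 33.7% against 4.97% and 37.2% against 5.56%, and Trp53inp1 at 70.1% against 47.9%, 57.0% against 23.0% and 54.3% against 23.1%. Median totals of the cells with and without Cdkn1a were 4867 and 4761, 5020 and 4669, and 4970 and 4735. With each cell thinned to 1000 adjusted counts the shares for Ccng1 kept that order, at 8.96% against 0%, 25.0% against 3.73% and 17.1% against 2.31%. Bax did so in CONV AsiDNA (9.88% against 0.621%) and FLASH (11.0% against 1.85%) but not in CONV (1.99% against 2.08%).

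In endothelial-like cells the same held for Phlda3, Bax and Gdf15 in both sets, 6 of 18 pairs beside 3.94% over all genes. Phlda3 was above 0 in 50.9% of CONV cells with Cdkn1a against 8.33% without, and in 79.6% against 35.6% in CONV AsiDNA. Bax gave 50.0% against 22.2% and 66.4% against 25.4%. Of the 36 CONV cells without Cdkn1a, 26 lay in the mostly CONV cluster, which was low in Phlda3 and had Gdf15 listed at 0, so the CONV contrast and that cluster overlap. Of the 59 in CONV AsiDNA, 15 did. FLASH had too few endothelial-like cells without Cdkn1a. Ciliated-like cells differed: only Mdm2 in FLASH had intervals apart (71.3% against 51.2%, and 17.4% against 16.6% after thinning), 1 of 21 pairs beside 2.8% over all genes, although Cdkn1a was common there. Fibroblast-like cells had 3 of 14 pairs, beside 0.235%, all in CONV AsiDNA (Bax, Phlda3 and Eda2r). In CONV neutrophil-like cells none of 3 was apart, beside 0.387% over all genes, and Trp53inp1 was above 0 in 44.6% of cells with Cdkn1a and 45.3% without, so both genes were high in the library without being in the same cells more often. Alveolar macrophage-like cells had Ccng1 in 46.5% against 32.2% in CONV, 48.4% against 37.5% in CONV AsiDNA and 50.2% against 33.8% in FLASH, the middle pair with overlapping intervals. After thinning these were 8.69% against 7.41%, 9.89% against 10.3% and 15.8% against 2.90%, so the difference was small in CONV and turned in CONV AsiDNA. In all, 4 of 24 pairs were apart there, beside 1.44% over all genes.

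**Figure D5:**
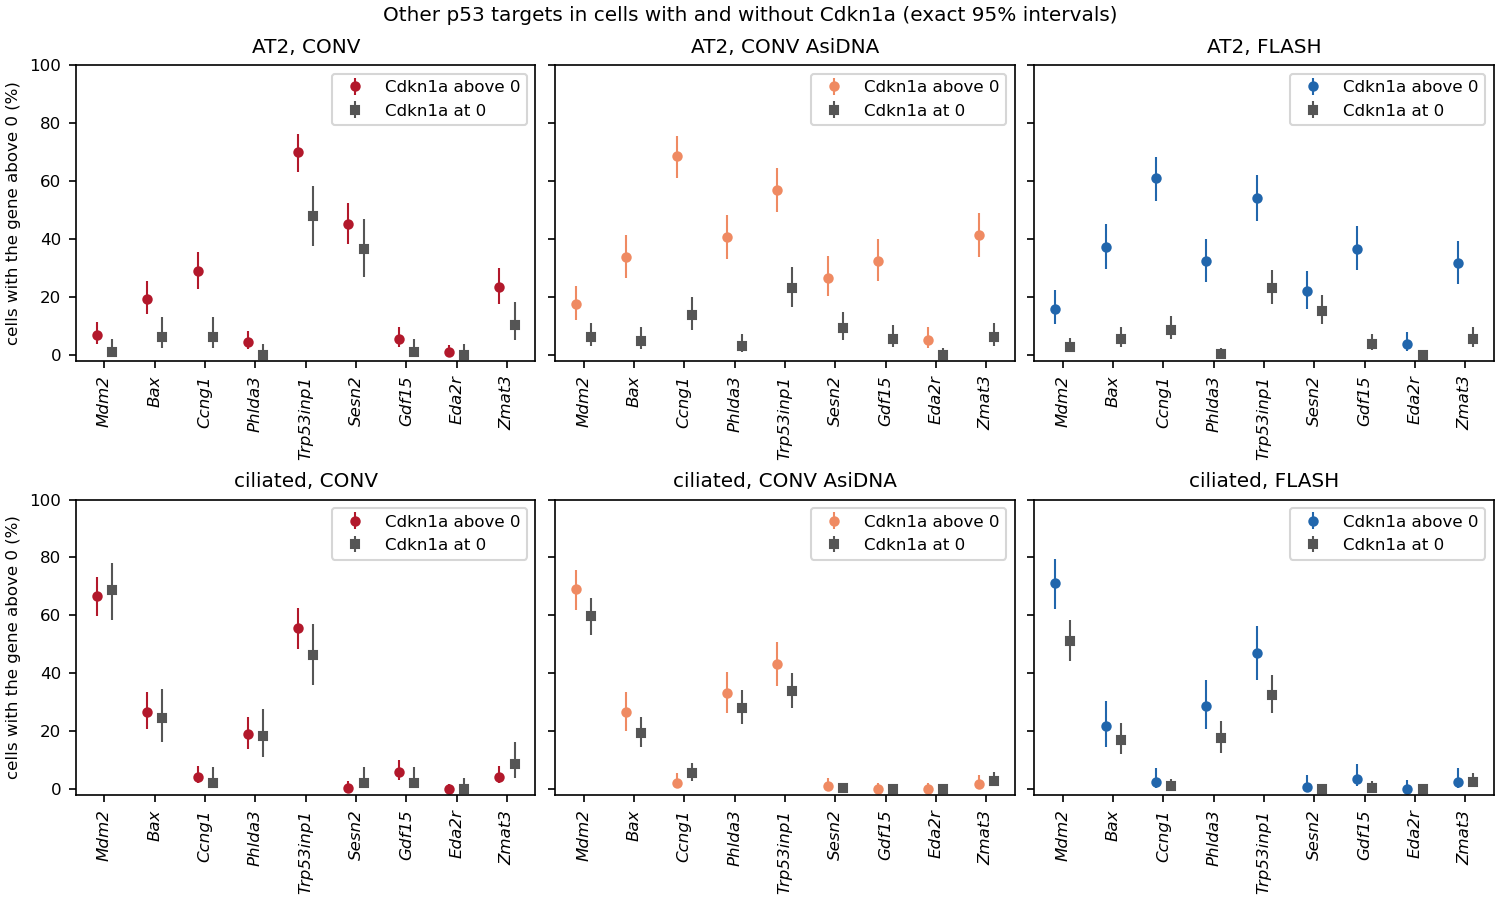
Share of cells (y axis, %) with each of the 9 other targets above 0, in cells with Cdkn1a above 0 (coloured circles) and at 0 (grey squares), with exact 95% intervals for the sampling of cells, in AT2-like (top) and ciliated-like cells (bottom) by library. In AT2-like cells Ccng1 and Bax lie higher with Cdkn1a in all 3 libraries, while in ciliated-like cells nearly all pairs overlap. After thinning, Bax in CONV AT2-like cells did not keep that order (1.99% against 2.08%).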

How the data were processed

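Single-cell suspensions of dispase and elastase digested lung were profiled with 10x Genomics 3′ chemistry. The submitters' processing notes name Cell Ranger 6.0.0 and mm10. The authors deposited a gene by cell table per library whose values are on a natural log scale (log of 1 plus a whole number), and no source used here states if or how cell totals were evened out. Values were converted back to whole numbers. A further 4 tables were not used, 3 of which hold the authors' comparisons (fold changes and p-values), with 12 columns of per-sample values among them.

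Cells with under 200 genes above 0 or over 20% mitochondrial share were left out (3 cells). A cell took the class with the most of its markers above 0, if at least 3 were, without a tie; 174 cells with 3 or more markers of a second lineage were kept out as mixed and 639 had no class or a tie. Endothelial-like cells took a subset from at least 2 markers. Levels were summed per 1000000 (CPM), a prior of 10 CPM was added before log2, and genes with a sum of at least 20 over the 3 libraries in a class were compared in classes of at least 30 cells per library. A gene high in 1 library could meet that sum through this library. Promoter windows came from RefSeq, gene positions from the GRCm38 annotation. Named were all 10 targets, the 3 highest and the 3 farthest apart of each list, and the 5 genes most like Cdkn1a; from these a few are printed, and Fos and the cluster genes were chosen after their values were seen. The members and lists were chosen with earlier results of these data known. There is 1 mouse per condition, so no test between conditions was possible, and cells are not replicates. Python 3.11.15, numpy 2.4.6, scipy 1.17.1, scanpy 1.11.5, scikit-learn 1.9.0, leidenalg 0.10.2 and matplotlib 3.10.9 were used, and the ratio script was checked on simulated data. Alternatives covered the gate, filters, doublets, scaling, prior, thresholds and depth.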

Additional observations from a re-analysis of the deposited data

Results flagged for a closer look

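For 2 targets, CONV was past 2-fold from both other libraries in 1 direction in some classes and in the other direction elsewhere. With 1 mouse per condition the difference between classes was not tested. The values are log2 ratios of CONV to the nearer of the other libraries. Phlda3 gave -1.13 in endothelial-like and -1.62 in AT2-like cells, and 1.17 in interstitial macrophage-like cells. In the last, both other libraries were listed at 0, so the minimum sum was met through CONV alone and the value is set by the 10 CPM added. With cells taken from clusters it was 0. Gdf15 gave -1.23 in endothelial-like and -2.45 in AT2-like cells, and 2.15 in club-like cells, where 7 of 79 CONV cells were above 0. Its sums in club-like cells were 50, 0 and 8. The minimum sum was thus met there through CONV, and nothing is read from that direction. Without the mostly CONV cluster, chosen after seeing the data, the endothelial-like values were -0.59 for Phlda3 and -0.68 for Gdf15. Neither was then past 2-fold from both libraries.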

How the results depend on the processing

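Of 66 ratios of targets past 2-fold, over all pairs of libraries and 14 classes, 24 stayed past it under every alternative run, and 36 dropped under it with 50 CPM added. The T cell-like Cdkn1a ratio of CONV to CONV AsiDNA turned to -0.033 with cells taken from clusters. No paired analysis was possible because each condition has 1 library. With the threshold at 1.5-fold, the number of targets past it became 4 in endothelial-like cells (CONV against FLASH), 4 and 2 in ciliated-like cells (CONV against CONV AsiDNA and FLASH), 2 in fibroblast-like cells (CONV against CONV AsiDNA), 1 in AT2-like cells (CONV AsiDNA against FLASH) and 1 in each comparison of alveolar macrophage-like cells. With 50 CPM added it became 2 and 2 in AT2-like cells for the CONV comparisons, 1 in ciliated-like cells (CONV against CONV AsiDNA), 2 in fibroblast-like cells (CONV against FLASH), 1 there between CONV AsiDNA and FLASH, and 0 between those libraries in ciliated-like and neutrophil-like cells; the r of Trp53inp1 to Cdkn1a changed sign to 0.023 and that of Sesn2 was 0.088, against 0.31 with 1 CPM added. Scaling without mitochondrial, ribosomal, haemoglobin and immunoglobulin genes lowered the r of Mdm2, Bax and Ccng1 to 0.14, 0.17 and 0.20, and leaving out endothelial-like cells, chosen after seeing the data, that of Bax to 0.14, Gdf15 to 0.48 and Eda2r to 0.36. With 1 CPM added it became 4 in endothelial-like cells (CONV against FLASH) and 1 in alveolar macrophage-like cells (CONV AsiDNA against FLASH). With 2 markers in the gate it became 4 in endothelial-like cells (CONV against FLASH) and 1 in fibroblast-like cells (CONV against CONV AsiDNA), and the Cdkn1a shares of endothelial-like cells 86.5% in CONV and 81.6% in CONV AsiDNA. With the highest doublet scores left out it became 1 in ciliated-like and 1 in fibroblast-like cells (CONV against CONV AsiDNA), the fibroblast-like Cdkn1a share in CONV 43.9% and the fibroblast-like Mdm2 ratio of CONV AsiDNA to FLASH 0.74. Giving each cell the same weight, and scaling by the median gene ratio, left 1 in ciliated-like cells (CONV against CONV AsiDNA), since the Cdkn1a ratio there lies at the threshold. Without clusters mostly of 1 library, chosen after seeing the data, it was 1 and 1 in endothelial-like cells (CONV against each) and 1 in alveolar macrophage-like cells (CONV against FLASH), and the CONV Cdkn1a shares were 95.7% and 75.4%. Thinned to 1000 per cell, Cdkn1a shares were 68.7%, 68.6% and 76.8% in endothelial-like, 29.3%, 29.4% and 26.3% in AT2-like, 28.9%, 14.5% and 14.7% in ciliated-like, 34.3%, 27.6% and 21.0% in fibroblast-like and 20.9%, 26.5% and 25.0% in alveolar macrophage-like cells, and 16.2% in CONV neutrophil-like cells. Apart from the effects of the settings themselves, the cause of these shifts was not tested.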
